A study of Mus musculus with 48 samples.

Results

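The vascular genes described here are 37 markers of the cells that build brain blood vessels, chosen by gene symbol out of 47569 gene IDs found in both RNA tables. They comprise 30 genes of endothelial cells, which line the vessel, and 7 genes of mural cells, which wrap it (pericytes on capillaries and smooth muscle cells on larger vessels). All samples came from the hippocampal CA region of adult C57BL/6J mice aged 4 to 6 months that carried either a conditional knockout of Setd1b (labelled cKO) or the control genotype. Setd1b encodes a histone H3 lysine 4 methyltransferase. RNA was sequenced from whole CA tissue (6 libraries labelled cKO and 6 labelled control) and from CA neurons (3 and 3), and the neuronal marks H3K4me3, H3K4me1, H3K27ac and H3K9ac were profiled by chromatin immunoprecipitation (ChIP) in fixed, sorted neuronal nuclei. The labels name neither the Cre driver, nor the deleted exons, nor the alleles that the controls carry, nor how the neuronal RNA was obtained.

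Brain endothelial cells form the blood-brain barrier: claudins, occludin and cadherins seal the contacts between cells, and carriers and efflux pumps decide what crosses. Vascular endothelial growth factor (VEGF) signals to these cells through the receptors Flt1 and Kdr, and the ETS and SOX families of transcription factors maintain their identity. Pericytes depend on platelet-derived growth factor, which endothelial cells release and which pericytes sense through Pdgfrb, while smooth muscle cells carry the contractile proteins that set vessel diameter.

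Sequencing depth was 14.9 to 20.1 M gene counts per whole CA library and 55.7 to 69.1 M per neuron library. Setd1b itself did not follow the labels: its whole-gene level in whole CA was 54.3 to 67.2 CPM (read counts scaled to a common library size) in the libraries labelled cKO and 29.3 to 54.2 CPM in those labelled control, and the edgeR log2 difference was 0.59 (SE 0.11, adjusted p = 0.00415). In neurons the log2 difference of Setd1b was 0.25 (adjusted p = 0.361) and the ranges overlapped. Whole-gene counts do not show the loss of single exons, so every direction below is that of the libraries as labelled. Nothing in the labels says that the libraries of a group came from separate animals, so the p-values measure the spread between these libraries. Fewer cells of a type and less RNA per cell cannot be told apart in such bulk samples.

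The start sites of the genes on which the RNA results turn are shown first, because 3 of them are the members that passed the whole CA test and the fourth, Cldn5, is the defining tight-junction gene of brain endothelium. The sequences are RefSeq promoter windows of build GRCm38.p6, from 250 bases before to 50 bases after the start site, written 5′ to 3′ on the strand of the gene. Capitals mark GGAAG, the core recognised by ETS factors, or its reverse complement CTTCC. The windows are chr5:75978406-75978705 on the minus strand for Kdr, chrX:107403311-107403610 on the minus strand for Itm2a, chr1:194938571-194938870 on the plus strand for Cd34 and chr16:18776597-18776896 on the plus strand for Cldn5.
Kdr: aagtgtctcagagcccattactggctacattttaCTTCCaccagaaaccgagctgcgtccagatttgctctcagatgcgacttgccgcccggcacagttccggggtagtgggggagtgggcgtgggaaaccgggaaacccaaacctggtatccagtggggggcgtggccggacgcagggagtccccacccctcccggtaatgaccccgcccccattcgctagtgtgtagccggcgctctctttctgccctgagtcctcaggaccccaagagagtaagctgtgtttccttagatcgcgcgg
Itm2a: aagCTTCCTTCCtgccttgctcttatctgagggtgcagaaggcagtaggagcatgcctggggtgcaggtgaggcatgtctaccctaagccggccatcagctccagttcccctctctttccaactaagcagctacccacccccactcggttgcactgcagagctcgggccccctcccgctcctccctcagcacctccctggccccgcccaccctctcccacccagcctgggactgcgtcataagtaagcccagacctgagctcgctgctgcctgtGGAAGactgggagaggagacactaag
Cd34: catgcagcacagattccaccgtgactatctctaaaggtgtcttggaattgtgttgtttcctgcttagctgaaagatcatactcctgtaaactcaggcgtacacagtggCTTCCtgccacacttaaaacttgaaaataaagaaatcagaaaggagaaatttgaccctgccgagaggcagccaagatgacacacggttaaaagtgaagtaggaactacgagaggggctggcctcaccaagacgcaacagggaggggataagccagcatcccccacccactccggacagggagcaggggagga
Cldn5: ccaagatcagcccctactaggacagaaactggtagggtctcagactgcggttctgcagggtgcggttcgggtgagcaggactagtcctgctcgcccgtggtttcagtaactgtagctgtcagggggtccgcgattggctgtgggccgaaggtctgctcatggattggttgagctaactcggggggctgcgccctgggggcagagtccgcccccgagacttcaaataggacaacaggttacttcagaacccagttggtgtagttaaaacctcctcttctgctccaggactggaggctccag
Kdr and Cd34 held 1 match each, Itm2a held 3 (of which 2 overlap) and Cldn5 held none. Searched on both strands, GGAAG was present in 75% of the 28 windows of the 20 endothelial members found in the RefSeq table (a gene can have several start sites), in 60.0% of the 5 mural windows and in 71.4% of all 32851 windows, so the members' share was close to that of all genes. The SOX core AACAAT was present in 10.7% of endothelial windows, in 0.0% of mural windows and in 10.7% of all windows. The CArG box bound by serum response factor was found in none of the members' windows and in 1.63% of all windows. A match is a string of letters and not a bound site.

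In whole CA, 3 of the 30 endothelial members differed between the genotype labels. Kdr, the main signalling receptor for VEGF, and Itm2a, a type II membrane protein found in brain endothelium, were lower in the libraries labelled cKO, and Cd34, a sialomucin of the endothelial surface, was higher. None of the 7 mural members passed the test (7 of 7 were tested), with 2 of them at an unadjusted edgeR p under 0.05 and 0 called by DESeq2. The threshold was an edgeR adjusted p under 0.05 over all genes, which 4.17% of the 15362 genes tested passed (1.38% higher and 2.79% lower in cKO). An unadjusted edgeR p under 0.05 was found for 15.7% of all genes tested and for 6 of the 30 endothelial members. DESeq2 called 5.77% of all genes tested. The median log2 difference was -0.02 over the 30 endothelial members and -0.02 over the 7 mural members, beside 0.00 over all genes tested. The remaining 27 endothelial and 7 mural members lay between -0.25 and 0.53 on the log2 scale.

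Kdr (chr5:75932827-75979072) was measured at 20.9, 22.6 and 23.8 CPM (lowest, median and highest) in the 6 control libraries and at 15.3, 16.8 and 19.4 CPM in the 6 cKO libraries. Every cKO library lay below every control library. The log2 difference, cKO minus control, was -0.40 (SE 0.08, adjusted p = 0.00415).

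Itm2a (chrX:107397195-107403360) was at 49.2, 55.8 and 58.2 CPM in control libraries and at 38.4, 44.3 and 48.2 CPM in cKO libraries. The groups again did not overlap, with the cKO libraries below. The log2 difference was -0.35 (SE 0.06, adjusted p = 0.00225).

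Cd34 (chr1:194938821-194961292) moved the other way. Its level was 42.9, 46.9 and 52.9 CPM in control libraries and 56.4, 63.3 and 68.7 CPM in cKO libraries, so that all cKO libraries lay above all controls. The log2 difference was 0.41 (SE 0.07, adjusted p = 0.000762). These 3 genes were also the only members whose genotype groups did not overlap in whole CA, a pattern found for 3.14% of the genes tested.

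The file names place replicates 1 to 3 on one sequencing lane and replicates 4 to 6 on another, with both genotypes on each. Within the first lane the log2 difference of Kdr was -0.49 (adjusted p = 0.0422), that of Cd34 0.46 (adjusted p = 0.0149) and that of Itm2a -0.36 (adjusted p = 0.0749). Within the second lane, with 3 libraries a group, it was -0.30 for Kdr (adjusted p = 0.343), 0.37 for Cd34 (adjusted p = 0.11) and -0.35 for Itm2a (adjusted p = 0.0847). The sign of each was the same on both lanes, and each of the 3 calls held in all 12 fits that left out 1 library.

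**Figure D1:**
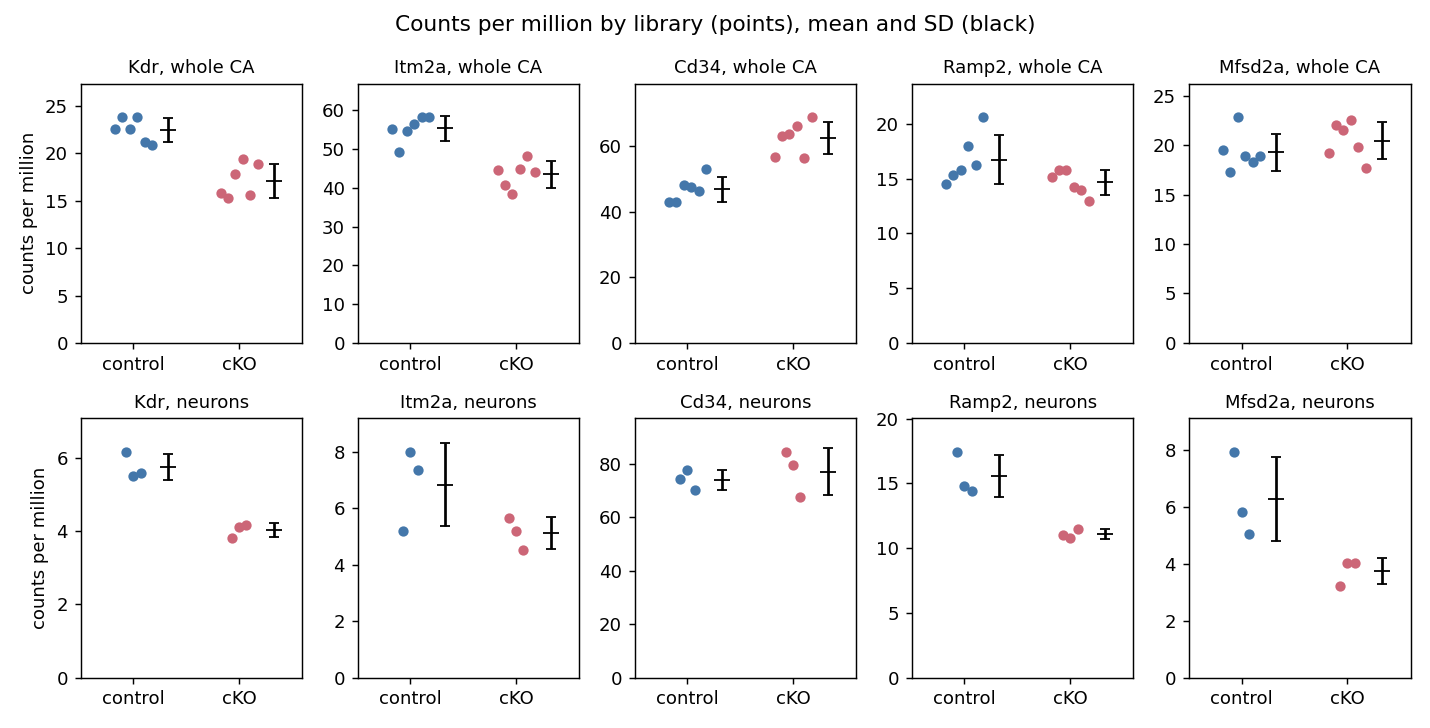
Level in CPM (y axis) of Kdr, Itm2a, Cd34, Ramp2 and Mfsd2a in each control and cKO library of whole CA (upper row) and of neurons (lower row), with the mean and SD in black. In whole CA the cKO points of Kdr and Itm2a lie below and those of Cd34 above all control points, while in neurons Kdr, Ramp2 and Mfsd2a separate and Cd34 does not.

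The members that join endothelial cells to each other gave no call in whole CA. Cldn5, the claudin that seals brain capillaries, was at 15.9, 18.8 and 28.8 CPM in control libraries and at 12.4, 20.3 and 22.4 CPM in cKO libraries, and the ranges overlapped (log2 difference -0.11, SE 0.15, 95% interval -0.42 to 0.21, adjusted p = 0.817). Pecam1, an adhesion molecule at endothelial contacts, was at 21.5, 22.1 and 24.8 CPM in control and at 19.7, 23.2 and 24.7 CPM in cKO libraries (log2 difference 0.01, 95% interval -0.14 to 0.16, adjusted p = 0.957). The 4 others were the tight-junction protein Ocln, the endothelial cadherin Cdh5, the adhesion molecule Esam and the junction adaptor Cgnl1, and all 6 junction genes lay between -0.14 and 0.06 on the log2 scale.

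Of the 8 receptors and signalling genes, Kdr alone passed. Flt1, which binds VEGF and limits what reaches Kdr, was at 67.7, 81.7 and 94.8 CPM in control and at 66.9, 73.7 and 80.4 CPM in cKO libraries (log2 difference -0.14, 95% interval -0.29 to 0.01, adjusted p = 0.384). Ramp2, the partner protein of the adrenomedullin receptor, was at 14.5, 16 and 20.6 CPM in control and at 13, 14.7 and 15.8 CPM in cKO libraries (log2 difference -0.20, SE 0.09, adjusted p = 0.291). Both genes had overlapping groups. The other 5 were the orphan receptor Tie1, the TGF-beta co-receptor Eng, the phosphatase Ptprb, the guidance receptor Robo4 and the secreted factor Egfl7, and they lay between -0.11 and 0.06.

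Among the 6 carriers and pumps of the barrier the 2 organic anion transporters came nearest to the threshold. Slco1c1, which carries thyroxine into the brain, was at 68.7, 76.5 and 84.8 CPM in control and at 61.2, 66.4 and 77.5 CPM in cKO libraries (log2 difference -0.19, SE 0.07, adjusted p = 0.114). Slco1a4 was at 46.3, 53.1 and 56.3 CPM in control and at 35.7, 48.1 and 52.5 CPM in cKO libraries (log2 difference -0.19, SE 0.08, adjusted p = 0.229). The groups overlapped for both. The efflux pumps Abcb1a and Abcg2, the glucose carrier Slc2a1 and the lysophospholipid carrier Mfsd2a lay between -0.02 and 0.12, and none passed.

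The 4 transcription factors, the ETS proteins Erg and Fli1 and the SOX proteins Sox17 and Sox18, lay between -0.11 and 0.09 with no call. Of the 6 surface and secreted proteins, Cd34 and Itm2a passed. Emcn, an endothelial sialomucin, was at 4.89, 6.85 and 8.14 CPM in control and at 5.16, 5.40 and 6.56 CPM in cKO libraries, with overlapping groups (log2 difference -0.25, SE 0.12, adjusted p = 0.328). The clotting factor carrier Vwf (0.19), the sialomucin Podxl (0.04) and the surface antigen Ly6c1 (0.02) did not pass either.

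The mural members are described apart, since they belong to other cells. Among the 5 pericyte genes, Rgs5, a regulator of G protein signalling, was at 141, 168 and 183 CPM in control and at 138, 147 and 166 CPM in cKO libraries (log2 difference -0.16, SE 0.06, adjusted p = 0.203). Pdgfrb, the receptor for platelet-derived growth factor, was at 27.8, 29.4 and 30.8 CPM in control and at 26.7, 27.9 and 31.6 CPM in cKO libraries (log2 difference -0.06, 95% interval -0.18 to 0.07, adjusted p = 0.732). Anpep, an aminopeptidase of the pericyte surface, was at 1.47, 2.09 and 3.30 CPM in control and at 2.27, 3.19 and 4.28 CPM in cKO libraries (log2 difference 0.53, SE 0.19, adjusted p = 0.15). All 3 had overlapping groups. Vtn, which encodes vitronectin (-0.04), and Abcc9, a subunit of potassium channels (0.04), did not pass.

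Of the smooth muscle genes, Acta2, the smooth muscle actin, was at 10.6, 13.8 and 16.3 CPM in control and at 13.1, 16.8 and 18.9 CPM in cKO libraries (log2 difference 0.23, SE 0.11, 95% interval 0.00 to 0.46, adjusted p = 0.319). Tagln, an actin-binding protein of the same cells, had a log2 difference of -0.02. The groups of both overlapped.

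**Figure D2:**
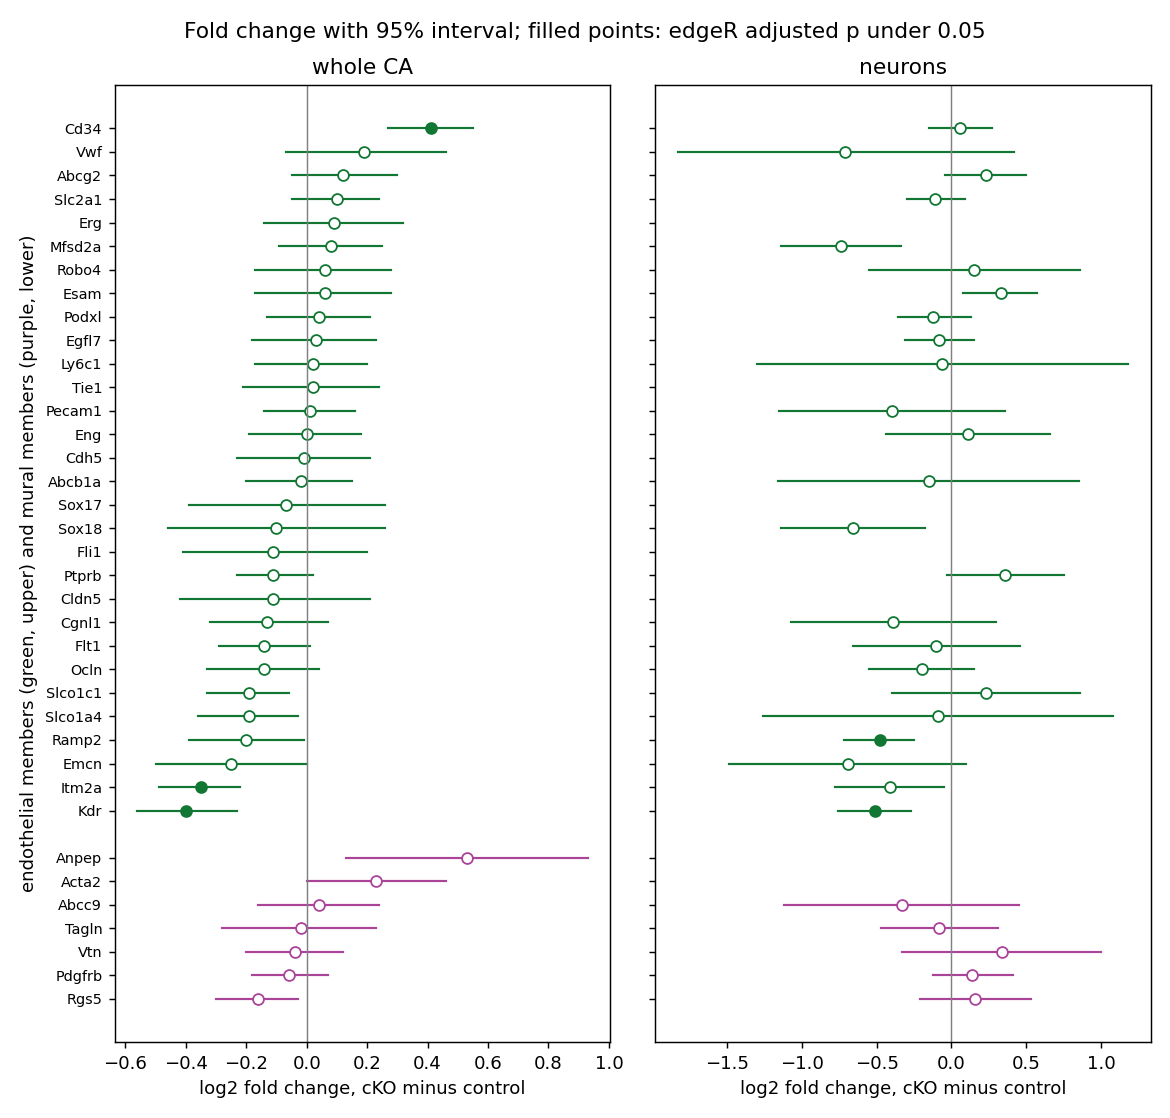
Log2 fold change (x axis, cKO minus control) of each member with its 95% interval in whole CA (left) and in neurons (right), endothelial genes in green above and mural genes in purple below. Filled points passed the edgeR test, which in whole CA are Cd34, Itm2a and Kdr and in neurons Kdr and Ramp2, and genes without a point in the right panel did not pass the filter on low counts.

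The summed level of all members of a class gives each library a single value, read here without a test. The 30 endothelial members summed to 778 to 831 CPM in control libraries (mean 794 ± 19.8, SD, n = 6) and to 738 to 822 CPM in cKO libraries (771 ± 29.8, n = 6). The 7 mural members summed to 271 to 303 CPM in control libraries (287 ± 14.4) and to 262 to 278 CPM in cKO libraries (271 ± 5.28). Both pairs of ranges overlapped. Rgs5 alone had a mean of 166 CPM in control and 148 CPM in cKO libraries, so the mural sum does not stand for the other mural members. On the first lane the endothelial means were 785 CPM for control and 752 CPM for cKO, and on the second lane they were 803 and 790 CPM. Replicate 3 of the cKO group held the lowest level of the 12 libraries for 10 of the 30 endothelial members, and replicate 6 of the control group held the highest level for 8 of them.

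**Figure D3:**
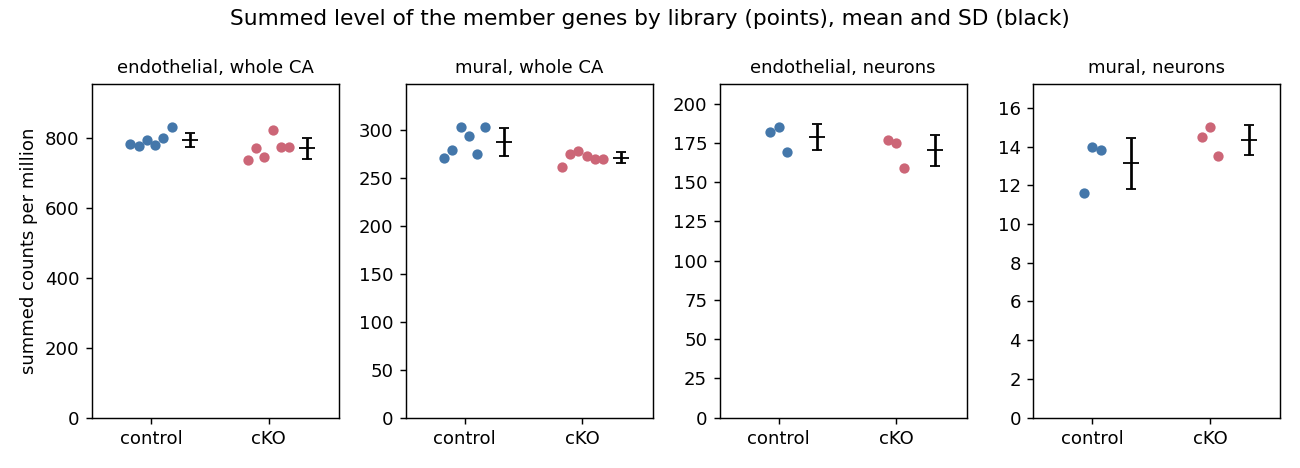
Summed level in CPM (y axis) of the 30 endothelial and 7 mural members in each library of whole CA and of neurons, with the mean and SD in black. Control and cKO points overlap in every panel, and the neuron panels have a smaller scale.

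Markers of other cells moved in the same whole CA libraries, and their part in the vascular results was not tested. All 10 microglial markers had a negative log2 difference (1 of 10 passed, Cx3cr1 at -0.22). Of the 10, 6 had an unadjusted p under 0.05 and DESeq2 called 4 (C1qb, Csf1r, Cx3cr1 and P2ry12). Their sum was 359 to 425 CPM in cKO and 414 to 493 CPM in control libraries. The 10 markers of perivascular fibroblasts summed to 121 to 144 CPM in cKO and 175 to 199 CPM in control libraries, and 1 of them passed, the proteoglycan Dcn at -2.25. Dcn alone fell from a mean of 65.5 to 13.8 CPM, so the sum does not stand for the other 9 markers, which lay between -0.72 and 0.14 with overlapping groups. The choroid plexus and ependymal markers summed to 32.7 to 45.1 CPM against 52.4 to 58.6 CPM, with Kl at -1.04 as the 1 call among 7 tested. All 7 had a negative log2 difference, but the median was -0.12, and Kl alone had an unadjusted p under 0.05. How much of the fall in the sum came from Kl was not tested. Aqp4 at -0.38 was the 1 call among 10 astrocyte markers and Map2 at -0.32 the 1 call among 10 neuronal markers, whereas the oligodendrocyte and blood lists gave 0 calls (edgeR, 0 at an unadjusted p under 0.05, and 0 with DESeq2).

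Other genes of the vascular pathways were read from lists of related genes. Of 10 further VEGF and angiopoietin ligands and receptors, 1 passed in whole CA, the VEGF co-receptor Nrp1, at 130 to 153 CPM in control and 87.0 to 97.1 CPM in cKO libraries (log2 difference -0.60, SE 0.06, adjusted p = 1.07e-06). Of 15 genes of Notch and TGF-beta signalling in vessels, 1 passed, the growth factor Pdgfb (-0.26, adjusted p = 0.0389). Of 16 genes of the Wnt pathway that maintains the barrier, 1 passed, the transcription factor Foxf2 (-0.58, adjusted p = 0.0153). The log2 difference was negative for 14 of the 16 Wnt genes, 13 of the 15 Notch and TGF-beta genes and 5 of the 10 VEGF genes. Over all genes it was negative for 7797 of 15362. An unadjusted edgeR p under 0.05 was found for 6, 1 and 4 of these lists, beside 15.7% of all genes tested.

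Of 18 other junction and barrier genes, 1 passed, the amino acid carrier Slc7a5, which was higher in cKO (0.32, adjusted p = 0.0458). Of 18 other endothelial genes tested, 1 passed, the surface protein Ly6e (-0.32, adjusted p = 0.0133). DESeq2 called 2 of this list (Ets1 and Ly6e), beside 5.77% of all genes tested. An unadjusted edgeR p under 0.05 was found for 5 of the 18, beside 15.7% of all genes tested. The log2 difference was negative for 13 of the 18, with a median of -0.13. None of 16 other mural genes and none of 12 basement membrane genes passed in edgeR or DESeq2, with 1 and 2 of them at an unadjusted edgeR p under 0.05.

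The neuron libraries give the level of the vascular members in neuronal material. In the control libraries, compared in one edgeR fit over all 18 RNA libraries, 29 of 30 endothelial and 7 of 7 mural members were lower in neurons than in whole CA, and Cd34 was higher. Of all 17523 genes tested 83.0% differed, 39.8% being lower and 43.2% higher in neurons. The median log2 difference, neurons minus whole CA, was -5.11 for the endothelial and -5.98 for the mural members, beside 0.07 for all genes tested. Of 10 neuronal markers, 9 were also lower in the neuron libraries, with a median of -1.06 and a range of -2.1 to -0.22. A drop of that size therefore does not set a gene apart from neurons. Mitochondrial genes held 3.41 to 7.05% of the counts in whole CA libraries and 0.00814 to 0.0144% in neuron libraries. Material, depth and sequencing run cannot be told apart in this comparison.

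The members were far from uniform in this respect. The largest drop was that of Cdh5, from 12.8 ± 1.67 CPM (SD, n = 6) in whole CA controls to 0.0589 ± 0.021 CPM (n = 3) in neuron controls, a log2 difference of -7.72 (SE 0.26). Slco1c1 (-7.55), Tie1 (-7.47), Flt1 (-7.42), Slco1a4 (-7.29), Acta2 (-7.23), Abcb1a (-7.15), Cldn5 (-7.02) and Vtn (-6.79) were also more than 100-fold lower in neurons. Pecam1 was lower by 6.06 and Rgs5 by 4.81 on the log2 scale. None of the members was at 0 in all 3 neuron control libraries, and the smallest total was 5 counts, for Anpep.

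By contrast, 12 endothelial members and the mural gene Tagln were less than 10-fold lower in neurons or higher there, a boundary set after the values were seen. Itm2a, 9.17-fold lower, lay just inside it and Pdgfrb, 10.1-fold lower, just outside. Cd34 was at 48.0 CPM in whole CA controls and at 70.4 CPM in neuron controls on the joint scale, a log2 difference of 0.48 (SE 0.08). Ramp2 was lower in neurons by a log2 difference of -0.29 (SE 0.11), which was not called when control replicate 2 or 3 of the neurons was left out. Kdr was lower by a log2 difference of -2.14 (SE 0.10), which is 4.42-fold.

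The other members of the 12 were Egfl7 (-0.78), Ocln (-0.87), Abcg2 (-0.92), Sox18 (-1.74), Mfsd2a (-1.80), Esam (-2.00), Podxl (-2.15), Slc2a1 (-2.29) and Itm2a (-3.20). The 4 members called in a genotype comparison of whole CA or neurons, Kdr, Itm2a, Cd34 and Ramp2, were all among the 12. Of the 18 other endothelial members, 0 were called in either. In which cells the called genes changed was not tested.

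**Figure D4:**
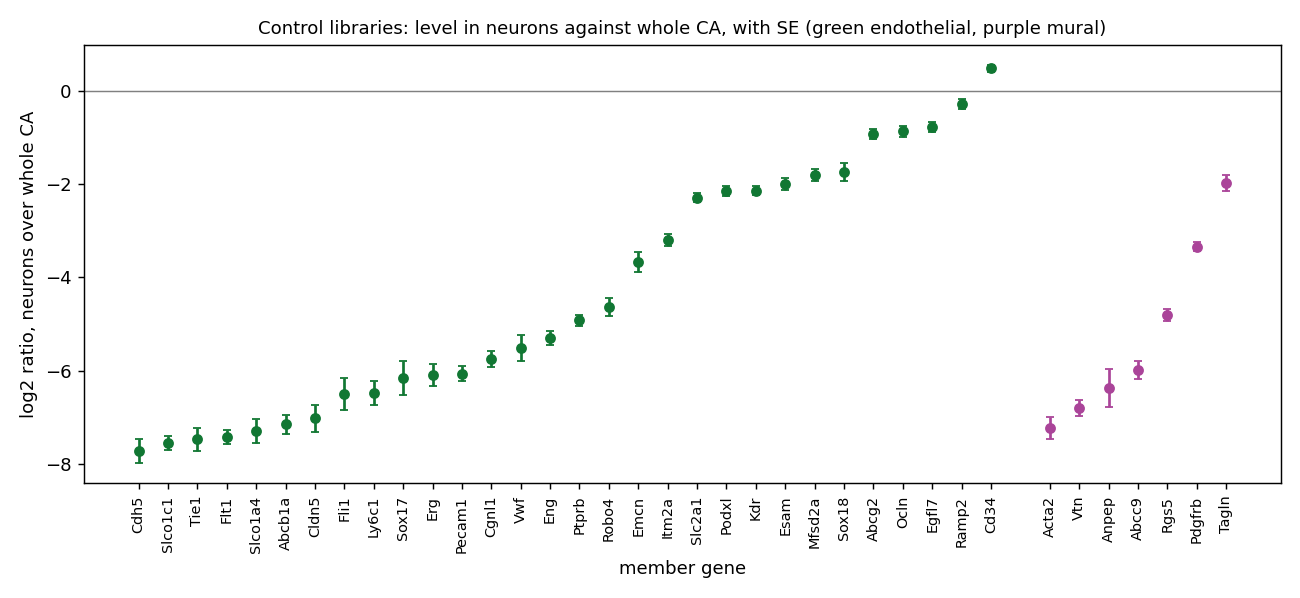
Log2 ratio (y axis) of the level in control neurons over that in control whole CA for each member (x axis), with SE bars, endothelial genes in green and mural genes in purple, each sorted. The points run from -7.72 for Cdh5 to 0.48 for Cd34 among endothelial genes and from -7.23 for Acta2 to -1.97 for Tagln among mural genes.

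In neurons, 29 of the 37 members passed the filter on low counts (24 endothelial and 5 mural). Cldn5, Cdh5, Tie1, Sox17, Erg, Fli1, Anpep and Acta2 did not. Kdr and Ramp2 were lower in the libraries labelled cKO, and none of the mural members tested was called (edgeR, 0 at an unadjusted p under 0.05, and 0 with DESeq2). The share of all 19622 genes tested that passed was 2.75% (0.744% higher and 2% lower in cKO), beside 2 of the 24 endothelial members tested. An unadjusted edgeR p under 0.05 was found for 17.2% of all genes tested and for 6 of the 24 endothelial members. DESeq2 called 4.51% of the 18470 genes to which it gave an adjusted p.

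Kdr was at 5.51, 5.59 and 6.15 CPM in the 3 neuron control libraries and at 3.81, 4.11 and 4.17 CPM in the 3 neuron cKO libraries. The cKO libraries all lay below the controls. The log2 difference was -0.51 (SE 0.11, adjusted p = 0.0411).

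Ramp2 (chr11:101246334-101248250) was at 14.4, 14.8 and 17.4 CPM in control and at 10.8, 11 and 11.5 CPM in cKO libraries, again without overlap. The log2 difference was -0.48 (SE 0.11, adjusted p = 0.0433). Neither call held in any of the 6 fits that left out 1 neuron library, in which the number of endothelial members called was 0 or 1, although the sign was the same in each.

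For Itm2a the neuron values were 5.19, 7.35 and 7.99 CPM in control and 4.54, 5.18 and 5.65 CPM in cKO libraries, with overlapping groups (log2 difference -0.41, SE 0.16, adjusted p = 0.238). For Cd34 they were 70.2, 74.3 and 77.6 CPM in control and 67.4, 79.5 and 84.3 CPM in cKO libraries (log2 difference 0.06, 95% interval -0.15 to 0.27, adjusted p = 0.779). The Cd34 groups overlapped, too.

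Outside the naming rule, 3 more endothelial members had neuron groups that did not overlap, so that 5 of the 24 tested did, beside 24% of all genes tested. Mfsd2a was at 5.07, 5.84 and 7.94 CPM in control and at 3.23, 4.03 and 4.03 CPM in cKO libraries (log2 difference -0.74, SE 0.18, adjusted p = 0.0647). Sox18 was lower (-0.66, adjusted p = 0.162) and Esam higher (0.33, adjusted p = 0.169) in cKO, and none of these 3 passed in the main edgeR fit. DESeq2 called Mfsd2a (adjusted p = 0.00564), and so did edgeR with no filter on low counts. The 3 genes were chosen after their values were seen.

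Whether the genotype difference itself differed between neurons and whole CA was tested in the joint fit, which 0.160% of 17523 genes passed (0.0285% with a positive and 0.131% with a negative difference). No vascular member passed in edgeR, and 3 of 30 endothelial members and 1 of 7 mural members had an unadjusted p under 0.05, beside 8.11% of all genes tested, so the share of the members was close to that of all genes. These were Mfsd2a (difference of the log2 differences, neuron minus whole CA, -0.81, 95% interval -1.18 to -0.44, adjusted p = 0.08), Ptprb (0.47, adjusted p = 0.412), Cd34 (-0.34, 95% interval -0.58 to -0.10, adjusted p = 0.462) and Rgs5 (0.34, adjusted p = 0.596). DESeq2 called 1 member, Mfsd2a (adjusted p = 0.00766), beside 0.433% of 15478 genes. For Kdr the difference was -0.11 (95% interval -0.39 to 0.17), for Ramp2 -0.28 (-0.59 to 0.03) and for Itm2a -0.05 (-0.36 to 0.25).

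The summed level of the endothelial members in neurons was 169 to 185 CPM in control and 159 to 177 CPM in cKO libraries, and that of the mural members was 11.6 to 14 and 13.5 to 15 CPM. Cd34 alone had a mean of 74 CPM in control and 77.1 CPM in cKO neuron libraries, so the endothelial sum does not stand for the other members. Among the related lists in neurons, Nrp1 (-0.64, adjusted p = 0.0103), the ligand Vegfa (-0.42, adjusted p = 0.0195), the transcription factor Foxq1 (-1.67, adjusted p = 0.0284, not called by DESeq2 at an adjusted p of 0.0633) and Ly6e (-0.41, adjusted p = 0.0295) were lower in cKO. The junction protein Jam2 was higher (0.65, adjusted p = 0.039). The difference between neurons and whole CA was called for Jam2 (0.85, adjusted p = 0.00571), for the angiopoietin receptor Tek (0.76, adjusted p = 0.04) and for Ogn of the fibroblast list (-3.13, adjusted p = 0.00131). Markers of other cells were called in the same libraries, Dcn (-1.92) and Ogn (-3.45) of the fibroblast list, S100b (-0.86) of the astrocyte list and Kl (-1.07) of the choroid plexus list, and their part was not tested.

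The histone marks of neuronal nuclei were read at the start sites of the 25 members found in the RefSeq promoter table (20 endothelial and 5 mural). H3K4me3 marks active and poised promoters, and H3K27ac and H3K9ac accompany active ones, while H3K4me1 is found at enhancers and promoter flanks. A peak of the authors' lists that came within 1 kb of the start site was counted, and it may belong to a neighbouring gene. H3K4me3 peaks were present in all 8 neuronal libraries at 12 of 20 endothelial start sites (60.0%, beside 49.8% of 27025 genes) and in none of the 8 at the other 8. H3K27ac peaks were present in all 7 libraries at 6 of 20 (30%, beside 46.3%) and in none at 10. H3K9ac was present in all 7 libraries at 9 of 20 (45%, beside 48.1%), and H3K4me1 in all 8 at 13 of 20 (65.0%, beside 53.6%).

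The start sites without H3K4me3 were those of Tie1, Eng, Robo4, Slco1a4, Slco1c1, Abcb1a, Emcn and Ly6c1. This holds for the start site only. Over the gene with 1 kb on each side, Abcb1a and Robo4 had H3K4me3 peaks in every library. Emcn had them there in 4 of 4 control and 3 of 4 cKO libraries, and Tie1, Eng, Slco1a4, Slco1c1 and Ly6c1 in none. The 6 start sites with H3K27ac in every library were those of Ocln, Egfl7, Abcg2, Slc2a1, Mfsd2a and Cd34. All 6 belonged to the members less than 10-fold lower in neurons, of which 8 were in the promoter table. Of the 12 other endothelial members in the table, none had H3K27ac in every library, 10 had it in none, and 4 had H3K4me3 in every library. Cldn5, whose promoter is printed above, was one of these 4: it had H3K4me3 in all 8 libraries and H3K27ac in none of 7.

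Among the 5 mural start sites, H3K4me3 was present in every library at 4 (Rgs5, Vtn, Abcc9 and Acta2) and H3K27ac at 1 (Vtn). At Vtn the H3K4me3 peaks covered a mean of 265 bases near the start in control and 280 in cKO libraries. Their full lengths had means of 2675 and 2438 bases, so most of each lay outside the window. For H3K27ac at Vtn the covered means were 367 and 384 bases, and the full lengths 2876 and 678 bases. At Acta2 the H3K4me3 peaks covered means of 206 and 196 bases. The length of the window under peaks was set side by side for the 2 genotype labels. Of the 100 pairs of a member's start site and a mark, 5 had groups that did not overlap. Over all genes of the table the groups did not overlap for 3.81% (H3K4me3), 5.14% (H3K4me1), 5.31% (H3K27ac) and 5.22% (H3K9ac), so the members' share was close to that of all genes. The mural pairs had opposite signs. At the start of Rgs5 the H3K9ac peaks covered 177, 281, 429 and 474 bases in the 4 control libraries and 535, 638 and 670 bases in the 3 cKO libraries. At the start of Anpep the H3K4me1 peaks covered 859 to 1339 bases in control and 322 to 481 bases in cKO libraries (n = 4 each). Of the 3 endothelial pairs, Ocln had 2167 to 2221 bases under H3K4me3 peaks in control and 2037 to 2139 bases in cKO libraries, and the others were H3K27ac at Cd34 and at Mfsd2a. All 5 were chosen after their values were seen, and the covered length moves with how much was called in a library. Peaks were called with 1 input per genotype, so input and genotype label cannot be told apart in any comparison of peaks between the labels. The H3K9ac lists held 109396 to 118504 peaks for control and 108575 to 140005 for cKO libraries.

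For the members called in the RNA, peaks of the marks were found under both genotype labels, and the lengths they covered are given next. The Kdr start site carried H3K4me3, H3K4me1 and H3K9ac peaks in all libraries of these marks, and an H3K27ac peak in 3 of 3 control and 2 of 4 cKO libraries. Its H3K4me3 peaks covered 1558 to 1663 bases in control and 1429 to 1703 bases in cKO libraries, so the groups overlapped. At Itm2a the H3K4me3 peaks covered 1214 to 1370 bases in control and 1226 to 1319 bases in cKO libraries.

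At Cd34 the H3K4me3 peaks covered 1274 to 1401 bases in control and 1028 to 1300 bases in cKO libraries, with overlap. Its H3K27ac peaks covered 883 to 1100 bases in 3 control libraries and 1117 to 1284 bases in 4 cKO libraries, without overlap. At Mfsd2a the H3K27ac peaks covered 930, 1068 and 1172 bases in control libraries and 447, 505, 578 and 778 bases in cKO libraries, without overlap, while the H3K27ac lists held 146411 to 197207 peaks for control and 150467 to 162103 for cKO libraries. Ramp2 is not in the promoter table. Over the gene with 1 kb on each side, a region chosen after the data were seen, H3K4me3 covered 1738 ± 44 bases in control and 1478 ± 134 bases in cKO libraries (SD, n = 4 each), and H3K4me1 covered 3029 ± 60 and 1861 ± 260 bases (n = 4 each). H3K27ac covered 2116 ± 282 (n = 3) and 1352 ± 255 bases (n = 4), and H3K9ac 1794 ± 113 (n = 4) and 1576 ± 134 bases (n = 3). The spans of all genes were not read, so no share stands beside these values.

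**Figure D5:**
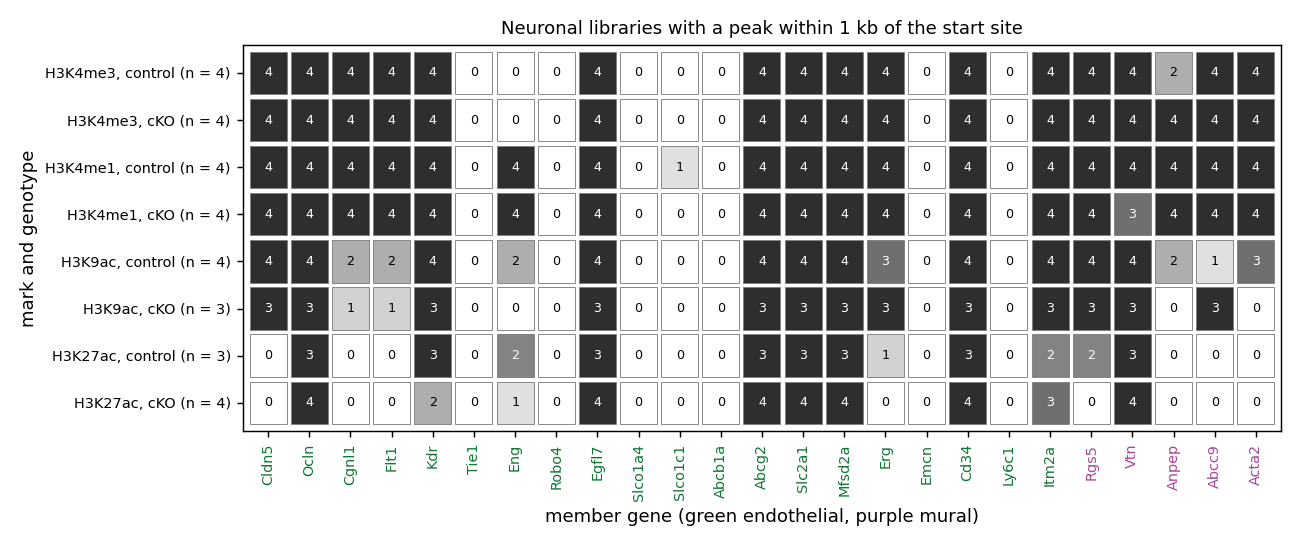
Number of neuronal ChIP libraries (figure in each cell, shaded by share) with a peak within 1 kb of the start site, for the 25 members in the promoter table (x axis) and each mark and genotype (y axis). The start sites of Tie1, Robo4, Slco1a4, Abcb1a, Emcn and Ly6c1 have no peak of any mark in any library, and Ocln, Egfl7, Abcg2, Slc2a1, Mfsd2a and Cd34 have peaks of all 4 marks in every library.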

How the data were processed

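RNA libraries were prepared with the TruSeq RNA v2 kit, per the labels' protocols. That kit does not keep strand, so reads of overlapping antisense genes cannot be told apart. The authors deposited whole-number read counts per Ensembl gene (unit: counts). The aligner and counter are not given in the sources used here. The ChIP files are MACS2 peak lists, one per sample, made with 1 input per genotype and a q cutoff of 0.1 (version 2.1.1.20160309 for H3K4me3, 2.1.0.20140616 for the other marks; broad regions for H3K4me1 only), per the file headers. In these deposited lists the −log10 q of each peak is the authors' value. The build is mm10 (GRCm38), per the submitters' processing notes.

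Gene counts were tested with edgeR 4.0.16 (R 4.3.3; quasi-likelihood test, TMM factors, filterByExpr, Benjamini-Hochberg adjustment over all genes tested). Whole CA and neurons were fitted separately, and all 18 RNA libraries jointly for differences between them. DESeq2 1.42.0 was an alternative. CPM values use TMM-scaled library sizes within a material, or over all libraries on the joint scale. SE and 95% intervals come from the edgeR fit. On data simulated from the whole CA libraries (15362 genes), edgeR called 100% of genes changed by 1 and 55% of those changed by 0.4 on the log2 scale. For neurons (19622 genes) these shares were 88% and 7%, and for the difference between materials (17523 genes) 87% and 3%, so small changes are often missed there. Genes with a low mean count were not among those changed, so these shares do not hold for members with few counts. Of the genes called, 3.73% in whole CA, 6.86% in neurons and 0% for the difference had not been changed.

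Full values are given for members called in a genotype comparison, for the 3 endothelial and 2 mural members with the next smallest whole CA p, and for Cldn5, Pecam1, Flt1, Pdgfrb, Rgs5 and Acta2. Called genes of the related lists are named. The members, lists and rules were chosen with earlier results of these data known. All 37 members were found once in each table. No libraries of a group agreed within counting noise (lowest chi-square per degree of freedom 4.82). Reads of Ly6c1, Abcb1a and Slco1a4 may be shared with close paralogs, so their counts are uncertain. Symbols were matched for 98.9% of whole CA and 99.3% of neuron gene IDs. Alternatives covered normalization, filters, thresholds, DESeq2, lanes, a replicate block and leaving out each library. Alternatives on peak strength (−log10 q of at least 5) and on the gene span with 1 kb on each side were added after the data were seen. A RefSeq promoter window was found for 25 of the 37 members. Pecam1, Ramp2, Cdh5, Esam, Ptprb, Fli1, Sox17, Sox18, Vwf, Podxl, Pdgfrb and Tagln had none. Some ChIP replicate numbers of H3K27ac and H3K9ac are not analysed here.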

Additional observations from a re-analysis of the deposited data

Results flagged for a closer look

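In 5 of the 114 groups of 4 or 6 libraries tested, 1 library lay far from the others relative to the range of its group. Chance alone flags about 1 in 20 groups, so this number is about what chance gives. Cdh5 was at 15.5 CPM in control replicate 6 of whole CA and at 11.3 to 12.7 CPM in the other 5 control libraries. Pecam1 was at 24.8 CPM in control replicate 2 and at 21.5 to 22.4 CPM in the others. Ptprb was at 60.0 CPM in cKO replicate 3 and at 50.6 to 53.7 CPM in the other cKO libraries. In neurons, the H3K4me1 peaks at the start site of Mfsd2a covered 1584 bases in control replicate 4 and 1305 to 1330 bases in the others. The H3K4me3 peaks at the start site of Rgs5 covered 610 bases in cKO replicate 1 and 703 to 714 bases in the others. None of the 3 RNA genes was called in a genotype comparison. The cause of these values was not tested.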

How the results depend on the processing

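The whole CA calls of Kdr, Cd34 and Itm2a held with RLE size factors, with library size only, with no filter on low counts, with a mean count of at least 10, with DESeq2, with lane as a covariate and without any 1 library. With the second lane only, and when a log2 change of 0.5 or more in size was also asked for, 0 endothelial members were called. Over all genes the whole CA count was 207 on the first lane, 224 on the second lane and 288 with the fold threshold, against 640. Leaving out 1 library gave 467 to 669 genes, 3 to 4 endothelial members (Slco1c1 added without cKO replicate 4) and 0 to 1 mural members (Anpep without control replicate 6).

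In neurons, Kdr remained alone with library size only and Ramp2 lost its call (1 endothelial member), Kdr alone also passed the fold threshold (1 member), and leaving out 1 library gave 0 to 1 (Itm2a without control replicate 1). With no filter on low counts, and with DESeq2, Mfsd2a was called beside Kdr and Ramp2. Over all genes the neuron count was 833 with DESeq2, 930 at an adjusted p under 0.1 and 207 to 482 when 1 library was left out, against 539. The difference between materials gave 69 genes with no filter and 67 with DESeq2, against 28, and 18 to 32 when 1 library was left out. Mfsd2a was the 1 endothelial member called there with no filter, with DESeq2 and at an adjusted p under 0.1, and leaving out 1 library gave 0 to 1 (Mfsd2a without neuron control replicate 3).

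None of the log2 differences that changed sign was called. That of Ramp2 in whole CA was 0.04 on the first lane, that of Cldn5 0.09 on the second lane (-0.16 to 0.02 with 1 library left out), and that of Pecam1 0.00 on the second lane (down to -0.01). With 1 library left out, Cd34 in neurons ranged from -0.01 to 0.14 and the difference of Itm2a from -0.21 to 0.06. The cause was not tested.

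Replicate numbers are shared by the genotype groups. The deviations of same-numbered libraries correlated at -0.064 to 0.203 in whole CA (4 of 6 above 0.1) and at -0.057 to 0.286 in neurons (1 of 3). For libraries with different numbers the range was -0.262 to 0.252 in whole CA and -0.25 to 0.216 in neurons. These values do not settle whether the numbers pair the samples, so a replicate block was fitted as an alternative. With a replicate block the whole CA count was 839 genes and the 3 endothelial calls held, while in neurons 327 genes and 0 endothelial members passed. With peaks of −log10 q of at least 5, an alternative chosen after the data were seen, H3K4me1 was in every library at 1 of 20 endothelial and 0 of 5 mural start sites (13 and 4 for all peaks), H3K9ac at 7 and 1 (9 and 2), H3K27ac at 5 and 1 (6 and 1), and the H3K4me3 counts stood as before at 12 and 4. In the comparison of neurons with whole CA, library size alone moved the median log2 difference of all genes from 0.07 to 0.25, and no filter on low counts to 0.33. The small difference of Ramp2 there was not called under either.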

Other observations

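The vascular basement membrane is the sheet of collagen and laminin that endothelial and mural cells share, and its genes had differences of both signs in neurons (4 with a positive and 7 with a negative log2 difference). Of 12 listed genes, 11 passed the filter in neurons, 7 of them had an unadjusted edgeR p under 0.05, and 0 passed after adjustment, whereas DESeq2 called 4 (Col4a1, Col4a2, Lama5 and Sparcl1). Over all genes tested in neurons, 17.2% had an unadjusted p under 0.05 and DESeq2 called 4.51%. The collagen gene Col4a1 was at 315, 335 and 406 CPM in the neuron control libraries and at 229, 256 and 264 CPM in the neuron cKO libraries, without overlap (log2 difference -0.49, SE 0.12, edgeR adjusted p = 0.0607). Col4a2 was at 280, 373 and 401 CPM and at 240, 250 and 255 CPM (log2 difference -0.50, SE 0.13, edgeR adjusted p = 0.086). The laminin gene Lama5 had the opposite sign, at 9.94, 11.4 and 12.4 CPM in control and 13.9, 15.5 and 15.7 CPM in cKO libraries (log2 difference 0.42, edgeR adjusted p = 0.0896).

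In whole CA the groups of all 3 overlapped. Col4a1 had a log2 difference of -0.08 there (adjusted p = 0.679), Col4a2 of -0.04 (adjusted p = 0.886) and Lama5 of 0.07 (adjusted p = 0.861). The 12 genes summed to 923 to 939 CPM in neuron cKO and 1170 to 1350 CPM in neuron control libraries, and to 2490 to 2990 CPM in whole CA cKO and 2610 to 3030 CPM in whole CA control libraries. Much of the neuron sums was Col4a1 and Col4a2, so these sums do not stand for the other genes of the list. In control libraries, 4 of the 12 genes were called higher and 7 lower in neurons than in whole CA, so the list does not stand for vessels alone. The difference of the genotype effects between the materials was called for 0 of the 12 genes in edgeR and 0 with DESeq2. An unadjusted edgeR p under 0.05 was found for 4 of them, beside 8.11% of all genes tested. On simulated data this contrast called 3% of genes changed by 0.4 on the log2 scale. The neuron and whole CA values are therefore shown neither to differ nor to be alike in their genotype effect. The 3 genes were picked out after their values were seen.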
